A study of Saccharomyces cerevisiae with 13 samples.

Results

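A set of 10 heat shock protein genes of budding yeast, out of 6326 genes in the deposited tables, was followed in newly replicated chromatin of the rtt109Δ strain. They were taken by systematic name: SSA1 (YAL005C), SSA3 (YBL075C) and SSA4 (YER103W), HSP82 (YPL240C) and HSC82 (YMR186W), HSP26 (YBR072W), HSP42 (YDR171W), HSP12 (YFL014W), HSP30 (YCR021C) and HSP78 (YDR258C). All 10 had a row in every table, and all 10 passed the filter of the tests. Rtt109 is the acetyltransferase that acetylates lysine 56 of newly made histone H3. The strain derives from W303 and carries the h-ENT1 nucleoside transporter and a thymidine kinase, written HPV-Thymidine kinase in the labels. Together they let the cells take up EdU and build it into DNA. All libraries share this strain and the deletion, so no wild type is compared here.

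Asynchronous cells in SCD-URA at 30 °C, a temperature that is not a heat shock, were labelled with EdU for 5 min, moved to thymidine for 5 min and fixed after a further chase with thymidine. Chromatin was digested with micrococcal nuclease (MNase), and EdU-labelled nascent DNA was captured through biotin. Replicate 1 was sampled at 0, 2, 4, 6, 8 and 15 min of chase and replicate 2 at 2, 4, 6, 8, 15 and 25 min. With 1 bulk (total chromatin) library this makes 13 libraries. Time points of a replicate are aliquots of 1 culture, so there are 2 cultures, and p-values over libraries measure the spread between aliquots as much as that between cultures. Sample titles name the rtt109 deletion and the source field a chd1 deletion. The body signal of RTT109 was 0.023 to 0.0675 in replicate 1 and 0.0632 in bulk, while that of CHD1 was 0.788 to 1.15 in all nascent libraries. Titles also call the samples input DNA where other labels call them nascent, and the description as nascent was used.

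Depth ranged from 2.57 reads per 20 bp bin at 0 min and 4.94 at 4 min of replicate 1 to 78.1 in replicate 2, and was 58.6 in bulk. In replicate 2 all 527 genes of chromosome 12 with values are listed at 0, RTT109 among them, so the deletion could be checked in replicate 1 and bulk only. None of the 10 genes lies on chromosome 12. The 25 min library stood apart from the rest: the median promoter/body ratio over all genes was 1.06 there and 0.531 to 0.607 in the 11 other nascent libraries. It was kept out of the tests and out of the ranges given for nascent libraries.

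Heat shock proteins are chaperones and stress proteins that keep other proteins folded or dissolve aggregates. Their genes are induced by the heat shock factor Hsf1, which binds arrays of the inverted unit nGAAn called heat shock elements (HSE), and by Msn2 and Msn4, which bind the stress response element (STRE). Some members, such as SSA1 and HSC82, are transcribed in unstressed cells, and others, such as HSP26 and SSA4, are nearly silent until stress. In yeast an active promoter usually has a nucleosome depleted region (NDR) just upstream of the transcription start site (TSS), followed by regularly spaced nucleosomes from +1 onward. Replication disrupts this order, and it is rebuilt behind the fork.

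The 500 bp upstream of each start codon were searched in the R64 assembly of RefSeq for an HSE of 3 units, GAANNTTCNNGAA or TTCNNGAANNTTC, which are reverse complements of each other, so both strands were read. A match was found for 3 of the 10 genes, SSA1, HSP42 and HSP78, and for 1.48% of the 6000 upstream regions of this length in the genome. The pattern allows no mismatch and no gap between units, so a gene without a match is not shown to lack an HSE. The 4 matching sites are shown because these genes are also the 3 with the largest increases in promoter signal described below. Each stretch is read 5′ to 3′ on the strand of the gene, with the matching bases in capitals (overlapping matches are joined):
SSA1 (chr1:141772-141801, minus strand, motif from 364 to 347 bp upstream of the start codon): taaactTTCCAGAACATTCTAGAAagaaag
SSA1 (chr1:141672-141700, minus strand, 261 to 249 bp upstream): tcttctttTTCCAGAACGTTCcatcggcg
HSP42 (chr4:806372-806401, plus strand, 243 to 226 bp upstream): taaaagTTCTGGAAGGTTCGCGAAttgaga
HSP78 (chr4:974467-974496, minus strand, 247 to 230 bp upstream): gttattTTCCAGAATGTTCTAGAAgtgttc
In SSA1, HSP42 and HSP78 the longer site joins 2 overlapping matches, that is 4 units in a row. The STRE (AGGGG, or CCCCT on the other strand) occurred upstream of 7 of the 10 genes, with 5 copies for HSP12, 3 each for SSA4, HSP26, HSP42 and HSP78, and 2 each for SSA1 and HSP82. At least 1 copy was found in 34.1% of all upstream regions and at least 2 in 8.13%. The distances are from the start codon in R64, and the build of the deposited tables is not given in the sources used here, so sites were not placed on the profiles.

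The deposited value is read coverage in 20 bp bins relative to the mean of the library, in which 1 is an average bin. Promoter signal is the mean of the 8 bins centred from -150 to -10 bp, body signal the mean from 0 to 1000 bp downstream of the TSS, and the promoter/body ratio is the first over the second. A low ratio therefore means low coverage from -150 bp to the TSS relative to the body. Sequence farther upstream does not enter it. In bulk the lowest upstream bin lay outside this window in SSA1 (-390 bp), SSA3 (-230 bp), HSC82 (-270 bp), HSP42 (-210 bp) and HSP30 (-430 bp). For these genes promoter signal and ratio do not read the lowest upstream coverage. HSP12, HSP26 and SSA1 have fewer body bins, since the row of HSP12 ends at 520 bp and that of HSP26 at 840 bp, and 15 of the 50 bins of SSA1 are missing.

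**Figure D1:**
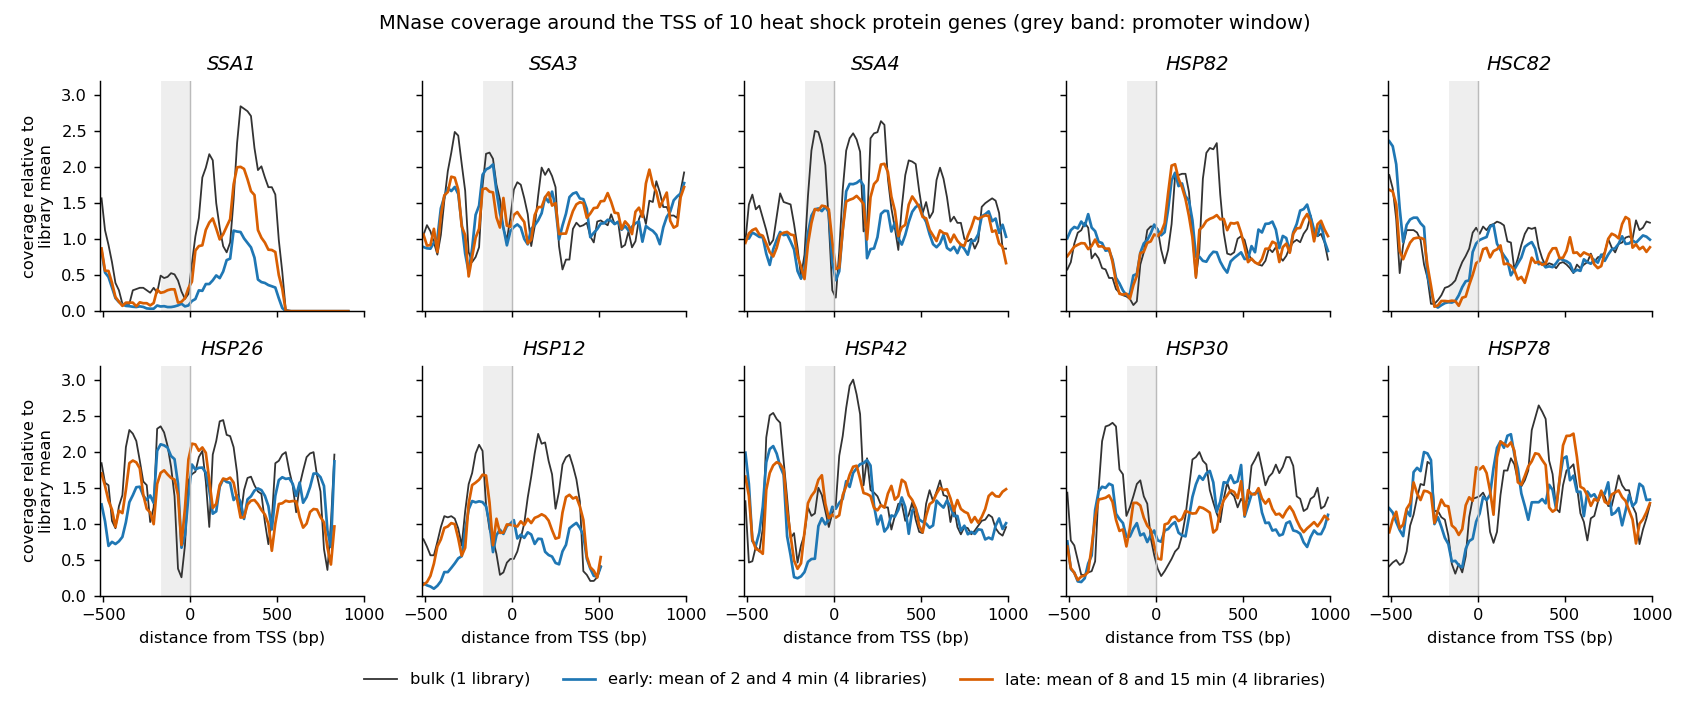
MNase coverage relative to the library mean (y axis) against distance from the TSS in bp (x axis) for the 10 genes, in bulk chromatin (black, 1 library), early nascent chromatin (blue, mean of the 4 libraries at 2 and 4 min) and late nascent chromatin (orange, mean of the 4 libraries at 8 and 15 min); the grey band is the promoter window. The orange curve of SSA1 lies above the blue one from 0 to 540 bp, HSP78 shows an upstream dip in the early curve that is shallower in the late one, and SSA3, SSA4 and HSP26 show coverage close to or above 1 over most of the promoter window.

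In the promoter window the 10 genes ranged from low to full coverage. Ordered by the median promoter/body ratio of the 11 nascent libraries up to 15 min, HSP26 was highest (1.19), followed by SSA3 (1.08), HSP12 (1.05), HSP42 (1.01), SSA4 (0.926), HSP30 (0.765), HSP82 (0.683), HSP78 (0.604), HSC82 (0.542) and SSA1 (0.192). The median over all genes was 0.561, and the ranges of the libraries overlapped between every pair of neighbours in this order. HSC82 and SSA1, the members at the lower end of this nascent order, make the constitutive Hsp90 and a cytosolic Hsp70. The small heat shock protein gene HSP26 stands at its upper end. The bulk library gave 1.24 for SSA3, 1.16 for SSA4, 0.893 for HSP30, 0.886 for HSP42, 0.815 for HSC82, 0.801 for HSP26, 0.590 for HSP82, 0.509 for HSP12, 0.494 for HSP78 and 0.292 for SSA1. SSA1 was lowest in both kinds of chromatin, while HSP12 stood near the top of the order in nascent chromatin and near its lower end in bulk. HSC82 and HSP26, far apart in the nascent order, were close in bulk, with HSC82 (0.815) above HSP26 (0.801).

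The summed length of open upstream sequence differed as much, counted over all bins whether or not they adjoin. Counting upstream bins with coverage below 0.5 within 520 bp of the TSS, the bulk profile of SSA1 was open over 400 bp. HSP82, HSC82 and HSP78 each had 180 bp, HSP30 120 bp, HSP12 and HSP42 60 bp, and SSA4 and HSP26 40 bp. SSA3 had no such bin, against a median of 140 bp over all genes. The row of SSA3 spans 1940 bp downstream of its start, less than its coding length of 1950 bp in R64, so the start used for it may lie at or inside the coding sequence. In nascent chromatin the open length of SSA1 was 340 to 520 bp with a median of 460 bp, and that of HSP78 was 0 to 140 bp with a median of 20 bp.

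The tables also carry an RNA polymerase II occupancy for each gene, whose scale and source are not stated. It was positive for 3 members, HSC82 (1.43), SSA1 (0.826) and HSP82 (0.507), and negative for the other 7, from -0.277 for HSP78 to -0.813 for HSP12. The 3 genes with positive occupancy had 180 to 400 bp of open upstream sequence in bulk. Across the 10 genes Spearman's rho of occupancy was 0.84 with the summed open length in bulk and -0.83 with the nascent median ratio. It was -0.442 with the bulk ratio and 0.212 with the ratio at 25 min. Over all genes the same values were 0.267, -0.231, -0.178 and 0.105, over 4966 to 5448 genes. These are descriptions across genes, which share the same libraries and are not replicates. The tables class 6 members as SAGA-dominated (SSA4, HSP82, HSP26, HSP42, HSP30 and HSP78), SSA1 and HSC82 as TFIID-dominated, and leave SSA3 and HSP12 undetermined.

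**Figure D2:**
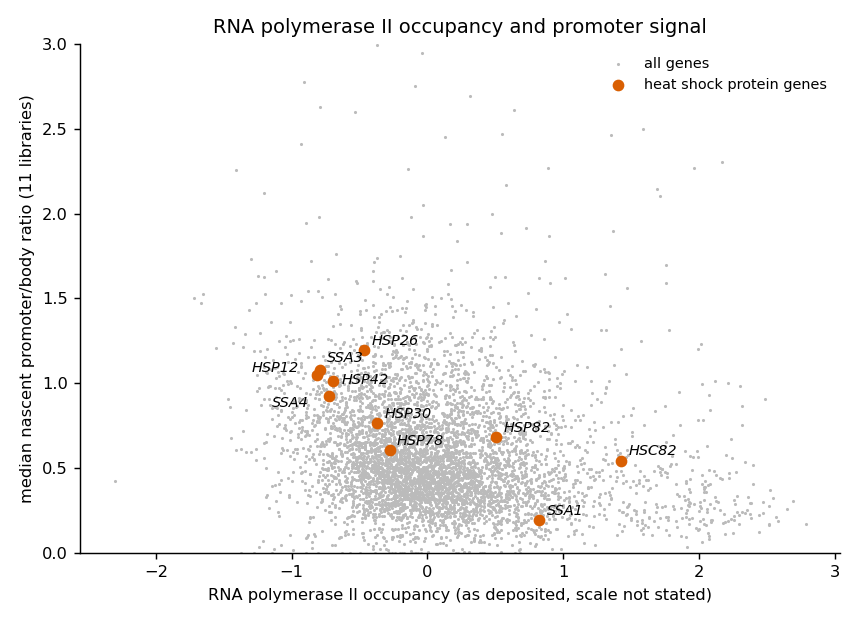
Median promoter/body ratio of the 11 nascent libraries up to 15 min (y axis, no unit) against the RNA polymerase II occupancy in the deposited tables (x axis, scale not stated); grey points are all genes with values, of which 59 above a ratio of 3 are not drawn, and orange points are the 10 heat shock protein genes. SSA1 and HSC82 lie to the right at 0.192 and 0.542, and HSP26, SSA3, HSP12, HSP42 and SSA4 lie to the left between 0.926 and 1.19.

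To ask how these genes changed as nascent chromatin matured, the 4 early libraries (2 and 4 min) were compared with the 4 late ones (8 and 15 min) by limma on log2(value + 0.1) across all genes, with Benjamini-Hochberg adjustment and a threshold of 0.05. Fold changes on this scale understate the change of low values. SSA1, which encodes a cytosolic Hsp70 of the Ssa family, was the 1 member of 10 past the threshold, in body signal, where 95 of 5678 genes passed (1.67%). That count was 252 with the replicate as a block in the model, and SSA1 was among the members past the threshold in both (adjusted p = 0.0134 with the block). Of promoter signal 11 of 5665 genes passed (0.194%), of the promoter/body ratio 4 (0.0706%), and none of the members was among them. Without adjustment 2 members had p under 0.05 in body signal (17.9% of all genes), 3 in promoter signal (11.5%) and 1 in the ratio (8%). The median change of the members was 0.10 in body signal, 0.08 in promoter signal and 0.01 in the ratio on the log2 scale, against 0.01, 0.00 and -0.02 over all genes. Body signal was higher late in 8 of 10 members and in 51.5% of all genes. Among these 8, HSC82 differed by only 0.0001244, and only SSA1 and HSP12 had 95% intervals that lay above 0. In no member were all late libraries below all early ones in body signal (3.79% of all genes), promoter signal (2.98%) or the ratio (2.68%).

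The body signal of SSA1 in replicate 1 was 0.619, 0.447, 0.296, 0.620, 0.794 and 1.05 at 0, 2, 4, 6, 8 and 15 min. In replicate 2 it was 0.482, 0.424, 0.756, 0.688, 1.09 and 0.807 at 2, 4, 6, 8, 15 and 25 min, and in bulk 1.32. All 4 late libraries lay above all 4 early ones, as in 7.12% of all genes, and the bulk value lay above all 11 nascent libraries. The mean rose from 0.412 ± 0.0813 (SD, n = 4) to 0.906 ± 0.196 (SD, n = 4), a log2 difference of 0.97 (SE 0.168, 95% interval 0.612 to 1.32, limma adjusted p = 0.00912), rank 16 of 5678 genes by p. The rise was seen in each culture, with a log2 difference of 0.81 without replicate 1 (adjusted p = 0.109) and 1.12 without replicate 2 (adjusted p = 0.165), so the call needed both. It also missed the threshold on the reverse strand alone (0.84, adjusted p = 0.126) and without the filter on low values (0.97, adjusted p = 0.113), which adds the genes listed at 0.

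The increase of SSA1 covered its first nucleosomes. Between 0 and 200 bp the 4 early libraries averaged 0.357 ± 0.0787 (SD) and the 4 late ones 0.994 ± 0.346, with 1.47 in bulk. Between 200 and 540 bp the averages were 0.639 ± 0.13 and 1.28 ± 0.274, with 1.85 in bulk. Neither window overlapped between the groups, and both were chosen after the profile was seen, so they carry no test. Upstream, from -520 to -300 bp, the values were 0.259 ± 0.169 early and 0.292 ± 0.16 late (SD, n = 4 each), and here the groups overlapped.

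The promoter of SSA1 was nearly empty at 2 and 4 min, but not at 0 min. Its promoter signal at 2 and 4 min was 0.0501 and 0.148 in replicate 1 and 0.0362 and 0.0557 in replicate 2. At 8 and 15 min it was 0.252 and 0.0861 in replicate 1 and 0.132 and 0.488 in replicate 2, with 0.386 in bulk. At 0 min it was 0.337, in the library with 2.57 reads per bin. At 6 min it was 0.113 in replicate 1 and 0.185 in replicate 2, and at 25 min 0.705. The groups overlapped, and the log2 difference of 0.88 (SE 0.351) had a limma adjusted p of 0.392. The Pearson correlation of the SSA1 profile with bulk from -500 to 1000 bp was 0.740 to 0.853 early and 0.854 to 0.926 late, which did not overlap (2.68% of all genes, limma adjusted p = 0.676), and 0.618 at 25 min. The bins from 560 bp on are at 0 in all 13 libraries and enter this correlation, so part of it comes from bins without signal.

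Beyond about 540 bp SSA1 has no usable signal in any library. From 560 to 1000 bp the bins that hold a value are listed at 0 in all 13 libraries, bulk included. In R64 its coding sequence is 96.4% identical to that of SSA2, its near-identical paralog on chromosome 12, and 63.9% of its 30-base words occur more than once in the genome, the first at position 193 of the coding sequence. Such words of the paralogs cannot be told apart, and how such reads were counted is not given in the sources used here. SSA2 is listed at 0 in all of replicate 2, so its own change could not be tested. HSP82 and HSC82 are 91.7% identical, with 16.2% and 16.3% of their words repeated, and SSA3 and SSA4 (76.6% identical) have no repeated word. The bins at 0 also enter the body signal of SSA1 to 1000 bp, lowering it and raising the ratio. With the body shortened to 0 to 500 bp, an alternative chosen after this was seen, SSA1 still rose by 0.99 (limma adjusted p = 0.0127). Its body signal then averaged 0.568 early and 1.24 late, with 1.79 in bulk, and its nascent median ratio was 0.140.

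**Figure D3:**
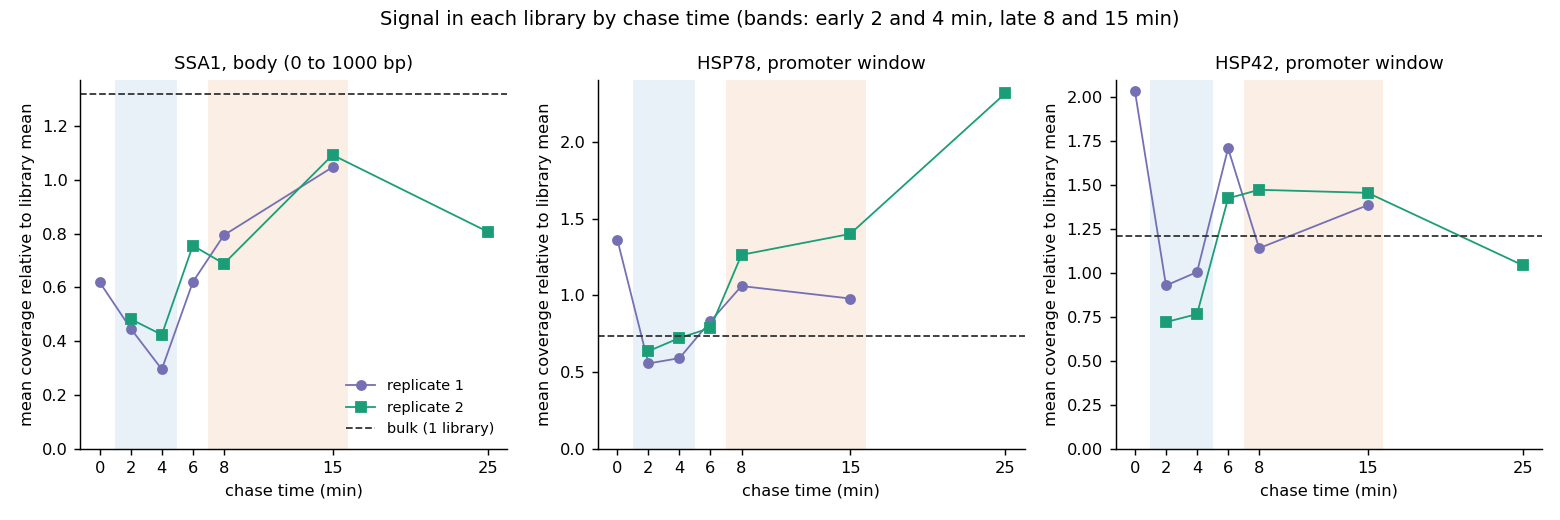
Mean coverage relative to the library mean (y axis) against chase time in min (x axis) for the body of SSA1 and the promoter windows of HSP78 and HSP42, in replicate 1 (purple circles) and replicate 2 (green squares), 1 library per point; the dashed line is bulk and the bands mark the early and late libraries. SSA1 climbs from 0.296 to 0.482 early to 0.688 to 1.09 late and stays below its bulk value of 1.32. Both promoters are higher in all 4 late libraries than in all 4 early ones, as are 3.71% of all genes.

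The other Ssa-family members, SSA3 and SSA4, encode stress-induced Hsp70 proteins, and neither passed the threshold in any measure. SSA3 had a promoter signal of 1.03 to 1.82 in the 11 nascent libraries (median 1.48) and 1.66 in bulk, with a late minus early log2 difference of -0.11 (95% interval -0.583 to 0.362). SSA4 had a promoter signal of 0.436 to 1.66 (median 1.10) and 1.84 in bulk, with a difference of 0.02 (95% interval -0.472 to 0.504). Their body signals differed by 0.11 (interval -0.235 to 0.452) and 0.13 (interval -0.151 to 0.411). In SSA4 the bulk library exceeded all 11 nascent libraries both in the promoter, as in 12% of all genes, and in the body (1.58 against 1.06 to 1.47), as in 15.4%. The bulk +1 peak of SSA4 reached 2.47 at 110 bp, and the highest bin from 0 to 200 bp in nascent libraries reached 1.59 to 2.34. How many of all genes show this was not counted.

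Hsp90 is made from HSC82, which is constitutive, and HSP82, which is more strongly induced by heat. HSP82 had a promoter signal of 0.712, 1.13, 0.731 and 0.563 early, and 0.808, 0.404, 0.724 and 0.886 late, with 0.668 in bulk. At 0 min all 8 of its promoter bins were listed at 0, in the library with 2.57 reads per bin. HSC82 had 0.570, 0.0246, 0.647 and 0.470 early and 0.342, 0.416, 0.168 and 0.218 late, and its lowest value came from the 4 min library of replicate 1 with 4.94 reads per bin. Neither gene passed the threshold, with log2 differences of -0.14 (interval -0.741 to 0.456) and -0.22 (interval -1.35 to 0.909). The order of libraries in these sentences is 2 and 4 min, or 8 and 15 min, of replicate 1 and then of replicate 2.

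HSC82 was the 1 member whose bulk ratio (0.815) lay above all 11 nascent libraries (0.0409 to 0.763), as did 7.9% of all genes. Its bulk promoter signal of 0.742 was also above all of them (0.0246 to 0.647). The likeness of its profile to bulk was 0.643 to 0.749 early and 0.371 to 0.639 late, so the late libraries were all lower, as in 1.34% of all genes, and the difference of -0.29 in Fisher z did not pass the threshold (limma adjusted p = 0.718). No gene passed it for likeness to bulk in limma (0%). An unadjusted p under 0.05 was seen for 404 of 5663 genes (7.13%), among them 2 members, SSA1 and HSP12. At 25 min the ratio of HSC82 was 2.29 and its body signal 0.338, the latter below its other 11 nascent values of 0.602 to 0.976.

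HSP78, the mitochondrial Hsp100 disaggregase, had the largest promoter change relative to its spread. Its promoter signal was 0.556 and 0.591 at 2 and 4 min of replicate 1 and 0.637 and 0.722 in replicate 2. At 8 and 15 min it was 1.06 and 0.980 in replicate 1 and 1.26 and 1.40 in replicate 2. At 6 min it was 0.831 and 0.788, at 0 min 1.36, at 25 min 2.32 and in bulk 0.733. The early and late groups did not overlap, as in 3.71% of all genes with the late group higher. The log2 difference was 0.81 (SE 0.191, 95% interval 0.385 to 1.23, limma adjusted p = 0.18), rank 48 by p, and missed the threshold. It was 0.41 with the promoter taken from -300 bp, 0.45 on the forward strand and 1.59 on the reverse strand.

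The promoter/body ratio of HSP78 showed the same order, at 0.351 to 0.477 early and 0.678 to 0.809 late, with no overlap (2.15% of all genes), and 0.494 in bulk. Its log2 difference was 0.68 (SE 0.173, limma adjusted p = 0.367), and it was 0.31 with the promoter from -300 bp, 0.28 on the forward strand and 1.48 on the reverse strand. The late promoter was thus more covered than bulk in all 4 libraries, and the early one less so in all 4. Over the first nucleosome, from 0 to 160 bp, the signal was 1.66 ± 0.28 early and 1.75 ± 0.212 late (SD, n = 4 each) and 1.22 in bulk, and the groups overlapped. On the forward strand the promoter mean was 0.847 early and 1.19 late and on the reverse strand 0.406 and 1.16, and on each strand alone the groups overlapped. HSP78 has the latest replication time in the tables among the members (73.2, scale not stated), against 30.5 for SSA1, the earliest, and its TSS lies farthest from a replication origin.

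HSP26 and HSP42 encode the small heat shock proteins that bind unfolded proteins and keep them in sequestered deposits. HSP42 had a promoter signal of 0.928 and 1.00 at 2 and 4 min of replicate 1 and 0.720 and 0.765 in replicate 2. At 8 and 15 min it was 1.14 and 1.38 in replicate 1 and 1.47 and 1.45 in replicate 2. The groups did not overlap, as in 3.71% of all genes with the late group higher. The log2 difference was 0.62 (SE 0.191, 95% interval 0.199 to 1.04, limma adjusted p = 0.27) and missed the threshold. The 0 min library gave 2.03, the highest value, the 6 min libraries 1.71 and 1.42, and bulk 1.21. Without replicate 2 the difference fell to 0.35 and without replicate 1 it was 0.89. For 0, 2 and 4 against 8, 15 and 25 min it was 0.32. In the tables the nearest origin lies -6 bp from the TSS of HSP42, the closest of the 10 genes.

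The promoter of HSP26 was covered at all times, with 0.848 to 1.87 (median 1.60) in nascent libraries and 1.31 in bulk, and a late minus early difference of -0.01 (interval -0.584 to 0.561). Its lowest promoter value was in the 4 min library of replicate 1. The upstream nucleosome of HSP26 stood inside the promoter window in bulk, followed by a narrow trough just before the TSS, and bulk had 40 bp below 0.5 in all. Its body signal was 1.21 to 1.66 in nascent chromatin and 1.63 in bulk.

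HSP12 and HSP30 encode stress proteins of membranes, the latter a negative regulator of the plasma membrane proton ATPase. The body signal of HSP12 was 0.819, 0.639, 0.679 and 0.635 early and 0.936, 0.739, 1.04 and 1.14 late, with 1.26 in bulk, above all 11 nascent libraries. At 0 min it was 1.22, above all late libraries, in the library with 2.57 reads per bin. At 6 min it was 1.08 in replicate 1 and 1.01 in replicate 2. The groups overlapped, and the log2 difference was 0.41 (SE 0.15, limma adjusted p = 0.149). Its likeness to bulk was 0.205 to 0.496 early and 0.333 to 0.758 late, with a difference of 0.36 in Fisher z (limma adjusted p = 0.676). The bulk profile of HSP12 had its +1 peak of 2.25 at 150 bp, while the highest nascent bin from 0 to 200 bp was 0.936 to 1.96. The bulk peak also exceeded the nascent ones in SSA1 and SSA4. It lay within the nascent range in SSA3, HSP82, HSC82, HSP26, HSP42, HSP30 and HSP78. The share over all genes was not counted.

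The early and late libraries of HSP30 overlapped, with promoter signals from 0.456 to 1.56 in nascent libraries, 1.22 in bulk and a late minus early difference of 0.20 (interval -0.603 to 1.01). Its body signal of 1.37 in bulk again lay above all 11 nascent libraries (0.941 to 1.29). In all, bulk body signal exceeded every nascent library in 4 members, SSA1, SSA4, HSP12 and HSP30 (15.4% of all genes). It was below them in none of the 10 (6.91% of all genes), as was bulk promoter signal (6.57%) and the bulk ratio (6.27%). Bulk is 1 library, which was not captured through EdU, so this is a comparison of that library with the others, and nascent and bulk libraries also differ in preparation.

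**Figure D4:**
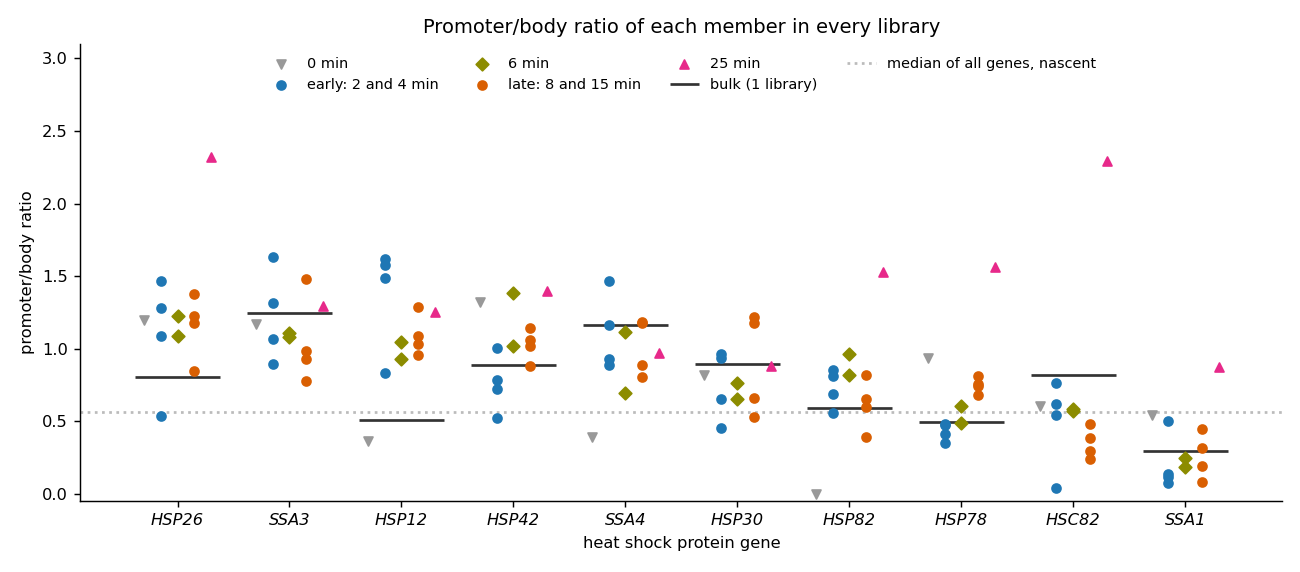
Promoter/body ratio (y axis, no unit) of each gene (x axis, ordered by the nascent median) in every library: 0 min (grey), early (blue), 6 min (olive), late (orange), 25 min (pink) and bulk (black bar); the dotted line is the median of all genes in nascent chromatin, 0.561. HSP78 is the 1 gene whose early (0.351 to 0.477) and late (0.678 to 0.809) points separate, and the 25 min points of HSP26, HSP42, HSP82, HSP78, HSC82 and SSA1 lie above all of their other points.

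**Figure D5:**
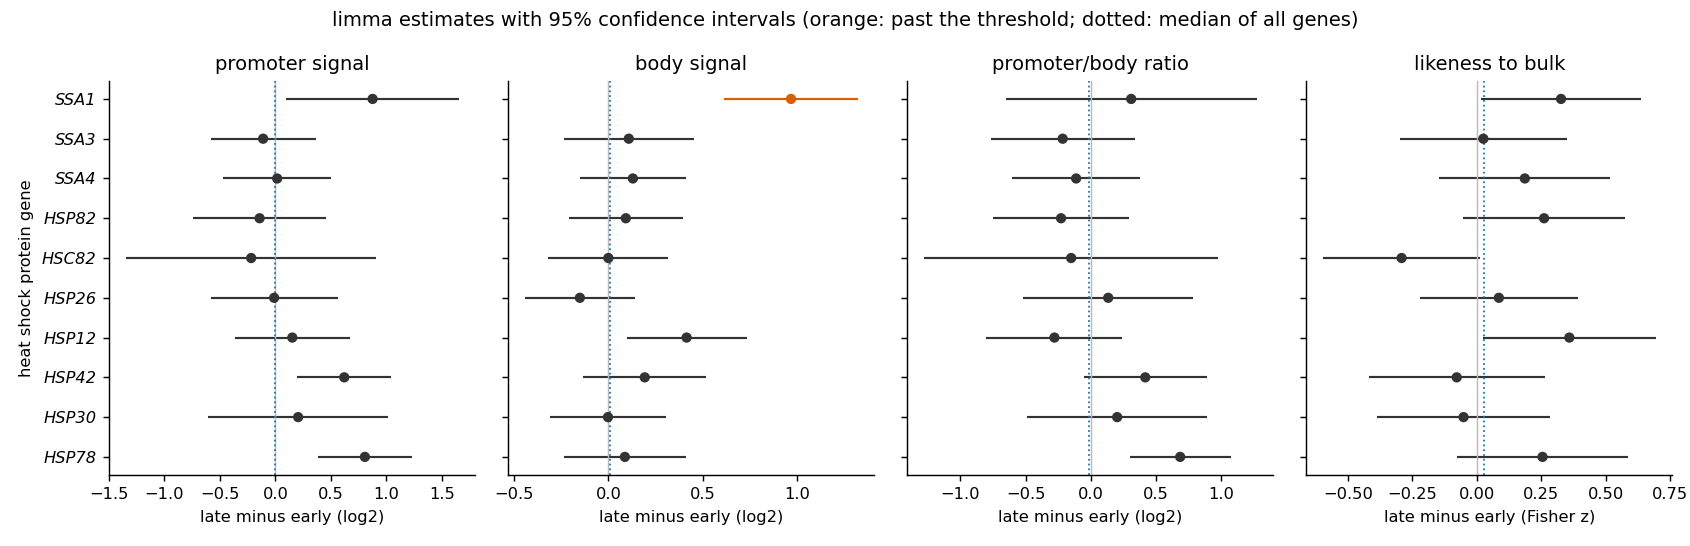
Late minus early difference of each gene (points) with its 95% confidence interval (lines) from limma, on the log2 scale for promoter signal, body signal and their ratio and in Fisher z for likeness to bulk; the dotted line is the median of all genes and orange marks the 1 value past the threshold. SSA1 body signal stands at 0.97, and the intervals of HSP42 and HSP78 promoter signal, from 0.199 to 1.04 and from 0.385 to 1.23, lie above 0 without passing the threshold.

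For each gene the one with the most similar bulk profile was the highest Pearson correlation over the bins from -520 to 1000 bp that both genes hold, at least 60 of them. SSA1 was most like PDI1 (r = 0.793 over 61 bins), which encodes the protein disulfide isomerase of the endoplasmic reticulum. The bins of SSA1 listed at 0 from 560 bp on enter this correlation and that of SSA1 with HSP82 given below. Part of both values thus comes from bins without signal. HSP82 was most like SDD3 (r = 0.861), and HSC82 most like ATG42 (r = 0.703). SSA3 paired with MOG1 (r = 0.718), SSA4 with MSO1 (r = 0.677), HSP26 with GRS2 (r = 0.673), HSP42 with MGA2 (r = 0.797), HSP30 with PDC5 (r = 0.769) and HSP78 with CBK1 (r = 0.832), while HSP12 has too few bins. In nascent libraries the same pairs were less alike, with a median r from 0.0795 (SSA4 and MSO1) to 0.486 (HSC82 and ATG42), PDC5 on chromosome 12 having no value in replicate 2. No member was the closest match of another, and the closest pair among them was SSA1 and HSP82 (r = 0.63). These correlations are across bins of 1 library, chosen as the highest of all genes, and are descriptions. They depend on the window, since over all deposited bins another gene came first for SSA1, SSA4, HSP82, HSC82 and HSP78.

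The deposited rows are given per strand and labelled leading or lagging, so signal under these labels could be compared. How far the labels separate the copies of each nascent strand is not described in the sources used here. The leading-strand share of the body signal had a median between 45.3% (HSP78) and 54.5% (HSP12) over the 11 nascent libraries, against 49.7% over all genes. The widest range among libraries was that of SSA1, from 25.4% to 70.6%, with a median of 49.4%. In the bulk library the share ran from 40.6% (HSP12) to 55.2% (SSA4), a range wider than that of the nascent medians.

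Among other chaperone and stress genes, 35 of 36 listed genes had rows and 31 could be tested, the 4 on chromosome 12 being at 0 in replicate 2. None of the 31 passed the threshold of limma in any of the 4 measures. At an unadjusted p under 0.05, the ratio was higher late in 2 and lower in 1 (9.68% of the 31, against 8% of all genes), promoter signal higher in 6 and lower in 3 (29%, against 11.5%), body signal higher in 5 and lower in 2 (22.6%, against 17.9%) and likeness higher in 1 (3.23%, against 7.13%). Their median change in body signal was 0.03 on the log2 scale and in promoter signal -0.10. The largest increases in the promoter/body ratio were 0.60 for MDJ1, a mitochondrial J-protein (limma adjusted p = 0.64), and 0.60 for TSL1, a subunit of trehalose synthase (adjusted p = 0.573). The largest decreases were -0.75 for SSE1, an Hsp110 that exchanges the nucleotide of Ssa proteins (adjusted p = 0.492), and -0.56 for the ribosome-associated Hsp70 gene SSB1 (adjusted p = 0.643).

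The 3 members with an HSE match, SSA1, HSP42 and HSP78, were the 3 with an unadjusted p under 0.05 in promoter signal, all with higher values late. This coincidence was seen after the values and has no test. Of the 70 other genes in the genome with the same match that could be tested, 5 (7.14%) were higher late in promoter signal at an unadjusted p under 0.05, against 6.55% of all genes. In body signal it was 10 of 70 (14.3%) against 11.8%. Their median differences were 0.07 and 0.08 on the log2 scale, and none passed the threshold of limma in any of the 4 measures.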

How the data were processed

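The authors deposited, per replicate and for bulk, a table of signal per gene in 20 bp bins from the TSS on each strand (read here to 1000 bp), as coverage relative to the library mean. In this deposited signal the letters R and NaN replace 1.7% of values, without a stated meaning, and were treated as missing, so the columns were recorded as other. Per the labels reads were called with CASAVA 1.7.0. Aligner and genome build are not given in the sources used here. Rows of 6 further names (37956 rows) match no sample and were not used. Such scaling makes libraries comparable in shape, not in absolute amount.

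Strands were averaged. Depth is the inverse of the step between values, and limits the 0 and 4 min libraries of replicate 1 most. Tests used limma 3.58.1 in R 4.3.3 on log2(value + 0.1) over genes with a body signal above 0 in all 8 libraries. Python 3.11.15, numpy 2.4.6, Biopython 1.88 and matplotlib 3.10.9 did the rest. Symbols, 5699 of them, and sequences come from R64. All 10 members are named, and of the second list only genes past the threshold or else the 2 largest changes of the ratio in each direction. Most similar profiles, planned over all bins, were taken to 1000 bp, and most of the genes named depend on this window. The members and lists were chosen with earlier results of these data known. Libraries of 1 replicate come from 1 culture, which is the source of the pairing. As a check, deviations of same-replicate libraries correlated between time points by 0.0172 to 0.0545 over 5665 genes. This is the number of genes tested for promoter signal and the ratio, not the 5678 of body signal. The check does not show how far the pairing matters for body signal. There the replicate block raised the count of genes past the threshold from 95 to 252.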

Additional observations from a re-analysis of the deposited data

Results flagged for a closer look

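Of 40 sets of 4 or 6 libraries examined for the promoter/body ratio of the 10 genes, 6 held 1 library whose gap to the nearest of the others, relative to the range, was above Dixon's 95% critical value. Chance gives about 1 in 20 for a single set, and these sets share libraries. Of these, 3 were the 4 min library of replicate 1, which has 4.94 reads per bin. There SSA1 had a ratio of 0.499, against 0.0752 to 0.131 in the other early libraries. SSA3 had 1.63, against 0.931 to 1.17 in the rest of replicate 1, and HSP26 had 0.536, against 1.19 to 1.38. The 25 min library gave 2.29 for HSC82, against 0.237 to 0.763 in the rest of replicate 2, and 1.56 for HSP78, against 0.413 to 0.809. HSP12 had a ratio of 0.83 at 2 min of replicate 1, against 1.49 to 1.62 in the other early libraries.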

How the results depend on the processing

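The count of genes past the threshold of limma in body signal (95) became 214 with a pseudocount of 1, 229 with quantile normalization, 252 with the replicate block, 203 for 2 against 15 min, 62 for 0, 2 and 4 against 8, 15 and 25 min, 23 on the forward strand, 22 on the reverse strand and 0 without the filter (987 with an unadjusted p under 0.05). The count in promoter signal (11) became 2 with a pseudocount of 1, 33 with quantile normalization, 8 with the replicate block, 0 for 2 against 15 min (459 unadjusted), 3 with 0 and 25 min, 1 on the forward strand, 2 on the reverse strand and 1 without the filter. That of the ratio (4) became 1 with a pseudocount of 1, 13 with quantile normalization, 0 for 2 against 15 min (378 unadjusted), 1 with 0 and 25 min, 0 on the forward strand (360 unadjusted), 2 on the reverse strand and 2 with the promoter from -300 bp, and stayed at 4 with the block. Likeness gave 3 genes on the reverse strand. The members past the threshold fell from 1 to 0 without the filter and on the reverse strand. The replicate block changed no call of a member.

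Leaving out a replicate or a library gave 2 to 109 genes for body signal (2 without replicate 2), 0 to 9 for promoter signal, 0 to 5 for the ratio, 0 to 1 for likeness and 0 to 1 members (0 without either replicate). SSA1 body signal then ranged from 0.812 to 1.12 (adjusted p at most 0.0466 without any 1 library). The ratio differences ranged from -0.371 to 0.988 for SSA1, -0.204 to 0.0204 for SSA4, -0.507 to 0.0509 for HSP82, -1.04 to 0.735 for HSC82 and -0.312 to 0.578 for HSP26, none of them called. For HSP78 they ranged from 0.61 to 0.739.

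Ratio differences, none past the threshold, changed sign for SSA4 (0.0118 for 2 against 15 min, 0.133 with 0 and 25 min, 0.884 on the forward strand), HSP82 (0.622 with 0 and 25 min, 0.312 on the forward strand), HSC82 (0.232 with 0 and 25 min, 0.113 from -300 bp, 0.0508 on the reverse strand), HSP26 (-0.177 for 2 against 15 min, -0.0244 with the body to 500 bp) and HSP12 (0.0861 with 0 and 25 min, 0.278 on the reverse strand). Members with bulk outside the nascent range went from 1 to 0 for the ratio with the 25 min library, to 2 without the 0 min library (chosen after seeing its depth), to 2 from -300 bp and to 1 or 3 without a replicate. For promoter signal they went from 2 to 1 with the 25 min library and to 3 without a replicate, and for body signal from 4 to 5 without a replicate. The causes were not tested. The 2 cultures and the low depth at 0 and 4 min of replicate 1 limit what can be resolved for a single gene.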
